A study of Rattus norvegicus with 18 samples.

Results

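The renin-angiotensin genes described here are Agt, Ace, Agtr1a, Agtr1b and Agtr2, 5 of the 10969 genes that had a probe set with a single gene symbol. They were chosen by name, and all 12 probe sets to which the array annotation gives 1 of these symbols alone were kept. All 12 were on array type A. A further probe set, L36664_s_at, which the annotation assigns to Ace together with another gene, was left out of the 12. In the GRCr8 assembly Agt lies on chromosome 19, Ace on 10, Agtr1a on 17, Agtr1b on 2 and Agtr2 on X, so none of the 5 lies on chromosome 9, which carries the introgressed segment.

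Transcript levels were measured in total kidney RNA of 2 rat strains, with 3 samples each. Dahl salt-sensitive (S) rats, an inbred strain, become hypertensive on a high-salt diet. The congenic rats share that background but carry, on chromosome 9, DNA of a salt-resistant rat that includes a quantitative trait locus for blood pressure. The labels used here give no diet, age, sex or treatment, and they do not state that a strain's samples came from separate animals, so each p-value reflects a spread among samples that could be technical. The values are signals, 1 per probe set on a linear scale. On type A the median signal was 34.8 to 45.9 per array. A probe set was tested when its geometric mean over the 6 samples reached the 40th percentile of its array type. On type A this was a level of 21.2. Signals below 21.2 were not shown to be above background. Because probes differ in how strongly they bind, the signal of 1 probe set was not set against that of another.

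The renin-angiotensin system is a hormone cascade that raises blood pressure and retains sodium. Angiotensinogen (Agt) is the precursor of angiotensin I, which angiotensin-converting enzyme (Ace) turns into angiotensin II. Angiotensin II acts mainly through the AT1 receptor, which rodents encode in a pair of genes, Agtr1a and Agtr1b, and through the AT2 receptor (Agtr2), which often opposes AT1 and is far more abundant in fetal than in adult kidney. The kidney holds a local version of the cascade: the proximal tubule makes angiotensinogen and carries Ace on its brush border, and AT1 receptors sit on tubules, vessels and mesangial cells.

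Kidney marker genes were present on these arrays. Of 11 defining kidney genes measured, 10 passed the filter, where 8158 of all 10969 genes did. Among them were Umod of the thick ascending limb (5763.4 to 7455.6), Slc34a1 of the proximal tubule (10806.5 to 16451.4) and Aqp2 of the collecting duct (511.1 to 697.5). Slc12a1 was weaker, at 72.9, 80.6 and 77.1 in Dahl S and 123.9, 11.4 and 118.8 in congenic samples. Pvalb missed the filter. In both strains sample 1 stood apart from samples 2 and 3. The deviations of the samples numbered 1 from the strain means were correlated (0.45 over 15721 tested probe sets), and the lower quartile of signal on type A was 11.4 to 11.8 in them against 6.7 to 9.3 in the other 4.

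No renin-angiotensin transcript differed detectably between the strains. Of the 12 probe sets 7 could be tested, covering 4 of the 5 genes. By limma, 0 of the 7 passed an adjusted p of 0.05 (0% of all 15721 tested probe sets did), and 0 had an unadjusted p under 0.05 (2.49% of all did). Their adjusted p was 0.9997 in each case, and unadjusted p ran from 0.109 for Ace to 0.924 for an Agtr1a probe set. The congenic mean was higher in 6 of the 7 and lower in 1, with a median log2 difference of 0.13, where 49.5% of all tested probe sets were higher. The 3 congenic signals overlapped the 3 Dahl S signals in all 7, and in all 12 when untested probe sets were counted (7.08% of all tested probe sets did not overlap).

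**Figure D1:**
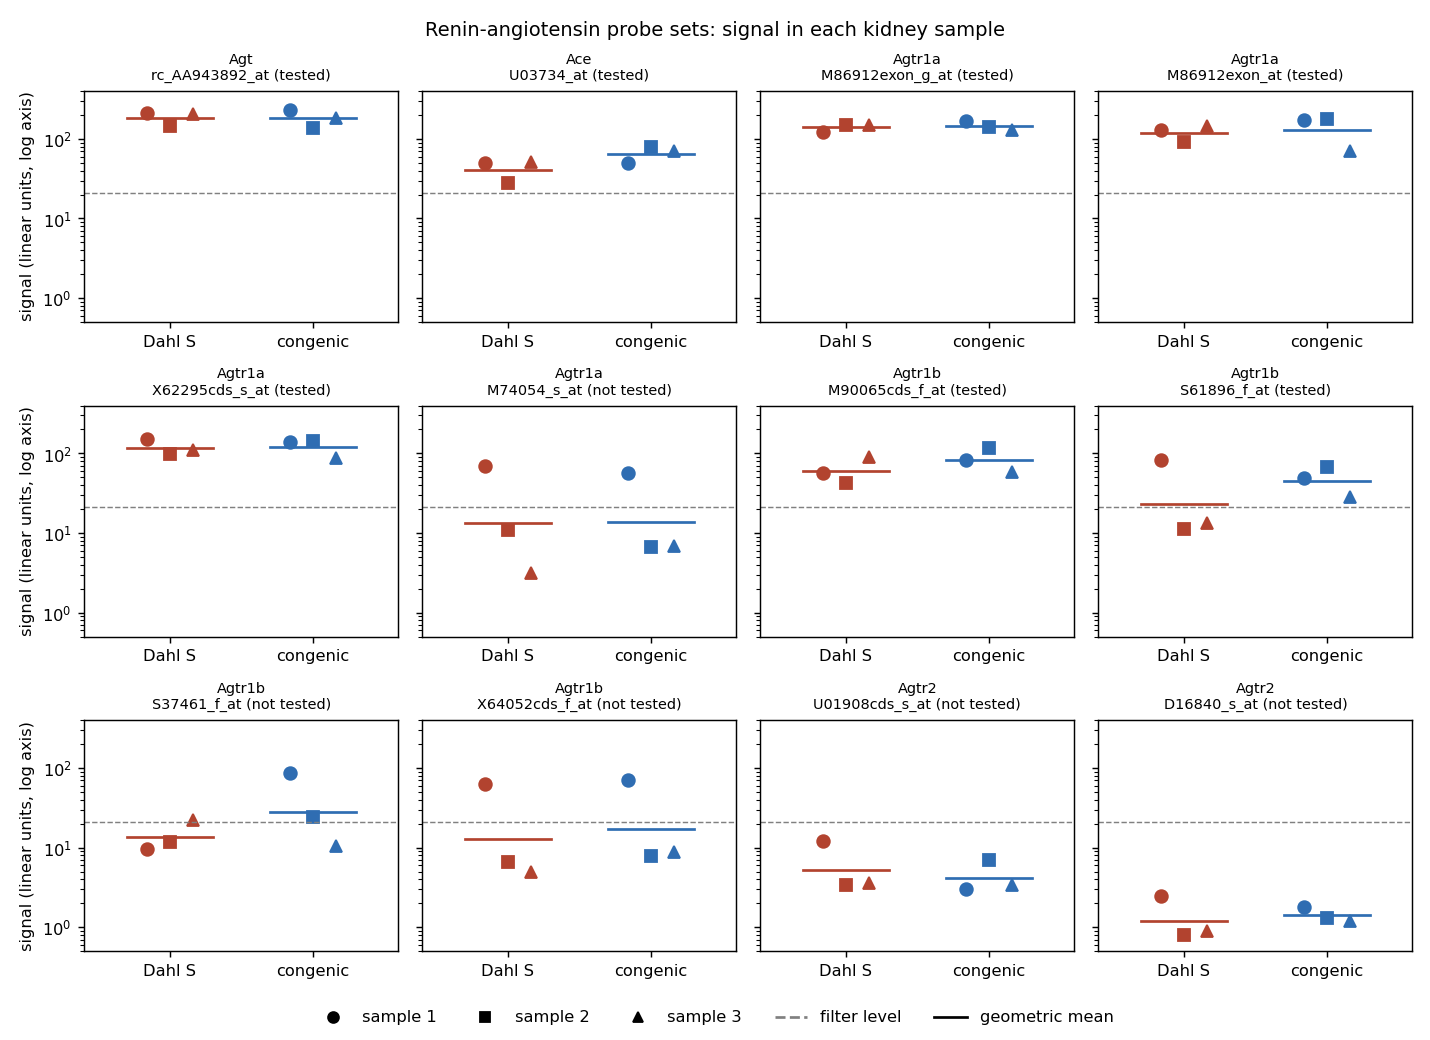
Signal of each of the 12 probe sets (vertical log axis, linear signal units) in the 3 Dahl S samples (red) and the 3 congenic samples (blue), with the sample number as symbol, the geometric mean as a bar and the filter level of 21.2 as a dashed line. The strains overlap in every panel, and in Agtr1a M74054_s_at and Agtr1b X64052cds_f_at the samples numbered 1 of both strains lie far above the other 4.

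The substrate is angiotensinogen, and its strain means lay closer together than the samples of either strain. Agt (probe set rc_AA943892_at) read 213.9, 146.5 and 202.9 in Dahl S samples 1, 2 and 3 and 233.2, 137.8 and 183.1 in congenic samples 1, 2 and 3. The mean signal was 188 ± 36.2 (SD, n = 3) in Dahl S and 185 ± 47.7 (SD, n = 3) in congenic kidneys. In each strain sample 2 was the lowest and sample 1 the highest, so the strains' ranges lay almost on top of each other. The log2 difference, congenic minus Dahl S, was -0.04 (SE 0.26, limma adjusted p = 0.9997). Its 95% interval in fold terms ran from 0.649 to 1.46, so a change within that range in either direction was not excluded. The interval is not a limit of detection.

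The converting enzyme had the smallest p of the set, without passing any threshold. Ace (U03734_at) read 49.1, 27.8 and 50.5 in Dahl S and 49.9, 78.2 and 71.2 in congenic samples 1, 2 and 3. Congenic samples 2 and 3 were above all Dahl S samples, but congenic sample 1 lay between Dahl S samples 1 and 3. The geometric mean signal was 65.3 against 41.0, a fold of 1.59 (log2 difference 0.67, SE 0.37, 95% interval of the fold 0.879 to 2.88, limma adjusted p = 0.9997). Dahl S sample 2 was the lowest of the 6, and without it the log2 difference was 0.39 (SE 0.38). Without both samples numbered 1 it was 0.99 (SE 0.46), again without passing. The probe set shared between Ace and another gene, L36664_s_at, did not show the higher congenic signal: it read 41.3, 15.3 and 10.9 in Dahl S and 17.3, 15.8 and 4.3 in congenic samples. All but Dahl S sample 1 were below 21.2 there, and it was not tested. Ace is known from proximal tubule and endothelial cells, so markers of both were set beside it. Of 24 tested proximal tubule genes 19 were higher in the congenic strain (48.9% of 8158 genes with 1 probe set each were). Their summed signal, in which the brightest probe sets weigh most here as in the other marker lists, was 83800 to 89400 in Dahl S and 87900 to 104000 in congenic samples. All congenic samples were above all Dahl S samples in 5 of the 24 (3.82% of all 8158 genes), which were the bicarbonate cotransporter Slc4a4, Pck1, Kap, Cubn and Slc22a6. Slc4a4 had the lowest unadjusted limma p of these lists (0.00335): it read 1768.6, 1930.2 and 1371.4 in Dahl S and 2866.3, 2529.4 and 2640.9 in congenic samples (log2 difference 0.68, SE 0.18, limma adjusted p = 0.9997). Of 13 tested endothelial genes 8 were higher. The summed signal of all 14 endothelial genes measured, tested or not, was 3230 to 3900 in Dahl S and 3560 to 3930 in congenic samples. Among the tested endothelial genes Egfl7 was lower in all congenic samples (log2 difference -1.24, SE 0.40, 0.0115 unadjusted) and Emcn higher in all (0.36, SE 0.16). Over all 22 tested probe sets of the endothelial list 10 were higher and 12 lower, so the majority depended on the choice of probe set. With single samples left out, 15 to 20 of the proximal tubule genes and 4 to 9 of the endothelial genes were higher. All 24 proximal tubule genes measured and 13 of 14 endothelial genes passed the filter, 0 were called by limma, and their part in the Ace values was not tested. In bulk kidney RNA, more cells of a type and more RNA per cell cannot be told apart.

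The AT1 receptor genes were covered by 8 probe sets, 4 for each gene, of which 5 were tested. All 5 had a congenic mean above the Dahl S mean and none separated the strains. The coding sequences of the paralogs are closely alike. The Agtr1b probe sets carry the suffix f, which marks sets whose probes could not all be chosen unique within a gene family. The assignment of their signal to Agtr1b rather than Agtr1a is therefore uncertain. Whether the Agtr1a probe sets also take up signal of Agtr1b was not tested.

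Agtr1a encodes AT1A, the predominant AT1 receptor of the rodent kidney, and 3 of its 4 probe sets passed the filter. M86912exon_g_at read 122.9, 147.7 and 149.5 in Dahl S and 165.6, 140.6 and 129.1 in congenic samples. This was the tightest measurement of the set: the highest of the 6 signals was 1.35 times the lowest. The log2 difference was 0.05 (SE 0.21, limma adjusted p = 0.9997), with a 95% interval of the fold from 0.746 to 1.44. M86912exon_at, made from the same transcript record, read 129.8, 91.1 and 143.1 in Dahl S and 174.4, 178.6 and 71.1 in congenic samples. Here congenic sample 3 was the lowest of the 6 and congenic samples 1 and 2 the highest, an order that the first probe set did not show, and the log2 difference was 0.13 (SE 0.39). X62295cds_s_at read 151.3, 98.1 and 110.8 in Dahl S and 137.9, 144.8 and 87.3 in congenic samples, a log2 difference of 0.03 (SE 0.28). Averaged over the 3 tested probe sets the Agtr1a log2 difference was 0.07. The direction was not stable: leaving out single samples moved the 3 values between -0.11 and 0.57, with signs on both sides of 0 for each.

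Agtr1b encodes AT1B, which in rodents is best known from the adrenal and the pituitary. M90065cds_f_at read 56.6, 42.6 and 89.9 in Dahl S and 83.8, 117.7 and 58.4 in congenic samples. Both strains spread widely, and congenic sample 3 lay near Dahl S sample 1. The log2 difference was 0.47 (SE 0.39, limma adjusted p = 0.9997). S61896_f_at read 81.7, 11.4 and 13.4 in Dahl S and 49.3, 68.1 and 28.0 in congenic samples. Dahl S sample 1 was the highest of the 6 while Dahl S samples 2 and 3 were below 21.2, so the size of its log2 difference, 0.97 (SE 0.78, limma adjusted p = 0.9997), is uncertain. The value moved most with Dahl S samples 1 and 2. Without Dahl S sample 1, which left only Dahl S signals below 21.2, the log2 difference was 1.88 (SE 0.60, limma adjusted p = 0.9998), the unadjusted limma p being 0.0151, and without Dahl S sample 2 it was 0.46.

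**Figure D2:**
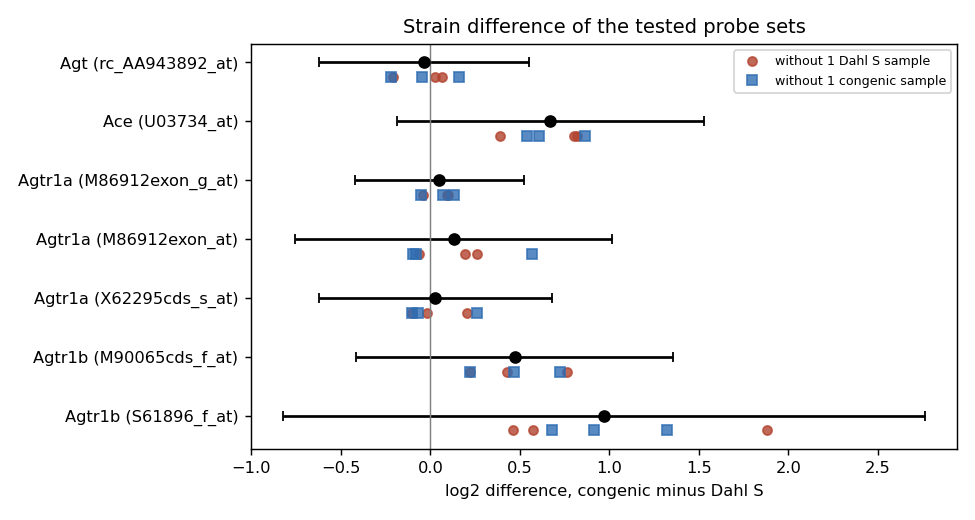
Log2 difference, congenic minus Dahl S, of the 7 tested probe sets (black points, with 95% intervals from limma, n = 3 per strain) and the same difference with 1 sample left out (red circles without a Dahl S sample, blue squares without a congenic sample). Every interval includes 0, and the left-out values of Agt and of the 3 Agtr1a probe sets fall on both sides of 0.

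The remaining AT1 probe sets were below the filter, and a pair of them split the samples by number and not by strain. Agtr1a M74054_s_at read 69.2 in Dahl S sample 1 and 56.9 in congenic sample 1, but 10.9, 3.2, 6.6 and 6.8 in Dahl S samples 2 and 3 and congenic samples 2 and 3. Agtr1b X64052cds_f_at read 63.2 and 71.2 in the samples numbered 1 and 6.6, 4.9, 7.8 and 8.9 in the others. Since the other 4 signals were below 21.2, they were set to that level, against which the lower of the samples numbered 1 was at least 2.68 times and at least 2.98 times higher. A ratio of at least 2.5 computed in this way, a limit chosen after these values were seen, occurred in 52 of the 8740 probe sets of type A (0.595%), and the samples numbered 1 were both the highest in 12.5% of them. Among the 12 renin-angiotensin probe sets they were both the highest in 3: these 2 and Agt. The 3 tested Agtr1a probe sets did not show the gap, so probe sets assigned to 1 gene disagreed in these samples. The last Agtr1b set, S37461_f_at, read 9.6, 11.9 and 22.2 in Dahl S and 85.6, 24.1 and 10.5 in congenic samples, where congenic sample 1 stood alone. None of these 3 probe sets was tested with the filter in place. Without it 0 of the 12 had an unadjusted limma p under 0.05, as did 797 of all 26202 probe sets.

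**Figure D3:**
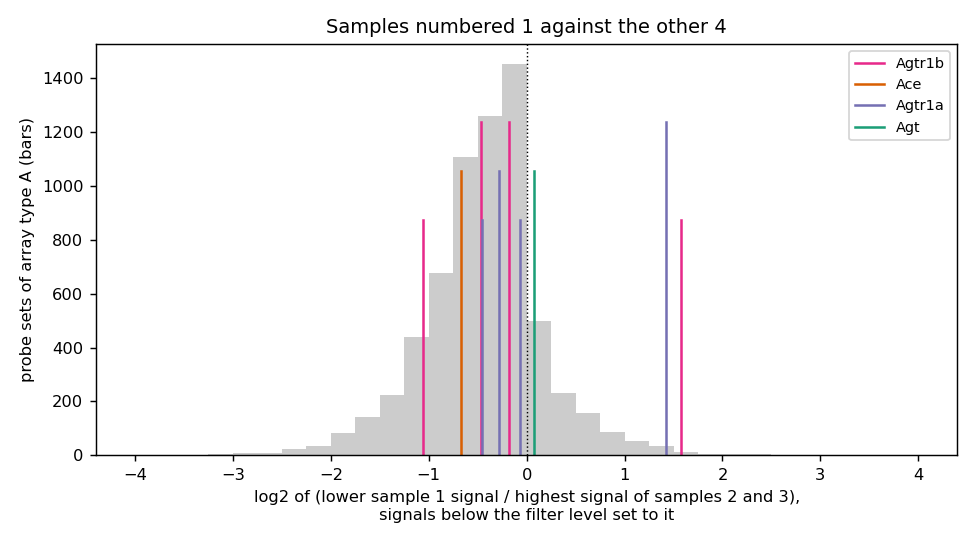
Grey bars count the 6564 type A probe sets with a signal of 21.2 or more by the log2 ratio of the lower signal of the samples numbered 1 to the highest signal of the other 4 samples (horizontal axis), with signals below 21.2 set to it, and coloured lines mark the renin-angiotensin probe sets by gene, their height having no meaning. Both Agtr2 probe sets are left out because all their signals were below 21.2. An Agtr1a and an Agtr1b line lie to the right, at ratios of at least 2.68 and 2.98, and the Agt line is just above equality at 1.05.

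The AT2 receptor was not measured above background. Agtr2 U01908cds_s_at read 12.0, 3.4 and 3.6 in Dahl S and 3.0, 7.1 and 3.4 in congenic samples. D16840_s_at read 0.8 to 2.5 over all 6 samples, below the floor of 3.1. Neither probe set was tested, all 12 signals were below 21.2, and a difference in Agtr2 was not detectable at this signal.

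Transcripts whose signal over the 6 samples ran most like that of each gene were found by the root mean square difference of the log2 profiles, each centred on its own mean, among the tested probe sets of other genes with a single symbol. Each gene was taken by its tested probe set with the highest mean. For Agt they were Psma7, a proteasome subunit (0.061 log2 units), Spata24 (0.068) and the transcription factor Yy1 (0.079), against a median of 0.422 over all 11953 compared. Psma7 read 323.8, 217.9 and 300.2 in Dahl S and 324.2, 214.3 and 254.0 in congenic samples, with sample 2 lowest in both strains as for Agt. For Ace they were Rcn1, a calcium-binding protein of the endoplasmic reticulum (0.092), Neb (0.117) and Atosb (0.121), against a median of 0.571. For the Agtr1a probe set M86912exon_g_at the closest were Ppme1 (0.047), Dpm2 (0.049) and Spsb3 (0.061), and for the Agtr1b probe set M90065cds_f_at they were Mtmr9 (0.124), the coatomer subunit Copg1 (0.127) and Nxph4 (0.143). The other AT1 probe sets ordered the samples differently, so these transcripts are the neighbours of a probe set and not of the gene. The likenesses describe 6 samples. Because the 3 closest were picked from all those compared, their place below the median follows from that choice and is no evidence of likeness. The SD over the 6 samples was 0.305 log2 units for Agt, 0.525 for Ace, 0.155 for M86912exon_g_at and 0.536 for M90065cds_f_at.

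The other genes of the pathway were taken from lists by role, with 1 probe set per gene. Over all 8158 genes tested in this way the median log2 difference was -0.01, the quartiles were -0.18 and 0.16, 48.9% were higher in the congenic strain and 2.35% had an unadjusted limma p under 0.05, while 0% passed the adjusted threshold. In the 7 lists likewise 0 genes passed it. With single samples left out in turn, an alternative added after the values were seen, the median kept its sign in 3 of the 7 lists (the receptor partners, the aldosterone arm and the Agt transcription factors).

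Proteases and binding proteins tied to angiotensin formation had 4 of 6 tested genes higher and 2 lower (median 0.07). Atp6ap2, an accessory protein of the vacuolar proton pump, read 495.2, 741.1 and 862.0 in Dahl S and 392.9, 907.5 and 945.2 in congenic samples, lowest in sample 1 of both strains, with a log2 difference of 0.03 (SE 0.35). The lysosomal protease cathepsin D (Ctsd), which can cleave angiotensinogen in vitro, differed by -0.35 (SE 0.20), and a second Ctsd probe set by -0.45 (SE 0.20). Tpp1, a lysosomal peptidase, differed by 0.34 (SE 0.22).

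Peptidases of angiotensin breakdown, with related kidney peptidases, had 7 of 11 higher and 4 lower (median 0.09). Aminopeptidase A (Enpep), which turns angiotensin II into angiotensin III, read 462.2, 506.2 and 472.3 in Dahl S and 544.8, 504.6 and 628.3 in congenic samples, a log2 difference of 0.22 (SE 0.18). Only congenic sample 2 fell inside the Dahl S range. A second Enpep probe set, S73583_at, gave 0.03 (SE 0.64), with 156.5 and 203.8 in sample 1 of Dahl S and congenic and 49.0 to 55.2 in the other 4. Neprilysin (Mme), which yields angiotensin 1-7 from angiotensin I, differed by 0.27 (SE 0.23), and by 0.11 (SE 0.27) in a second tested probe set. Dpp4, a brush border dipeptidyl peptidase, had the smallest p of the list: it read 2882.7, 2099.6 and 1611.4 in Dahl S and 3336.6, 2578.2 and 3072.0 in congenic samples (log2 difference 0.48, SE 0.22, limma adjusted p = 0.9997), and its other probe sets gave 0.13 and 0.17. Lnpep, the insulin-regulated aminopeptidase that binds angiotensin IV, differed by -0.34 (SE 0.24), and by -0.57 (SE 0.56) in a second probe set.

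Proteins that partner or tune the receptors had 1 of 6 higher and 5 lower (median -0.09). Over all 16 tested probe sets of this list 6 were higher and 10 lower. The receptor kinase Grk4 differed by -0.54 (SE 0.33), and Mtus1, which encodes an AT2 receptor-interacting protein, by 0.42 (SE 0.29). A second Mtus1 probe set went the other way, at -0.12 (SE 0.45). Mas1, the receptor of angiotensin 1-7, read 1.2 to 7.2 and was not tested. Transducers of AT1 signals had 10 of 21 higher and 11 lower (median -0.001), with the G protein subunit Gnai2 at -0.39 (SE 0.22) and the NADPH oxidase subunit Cyba at -0.24 (SE 0.14). The other Gnai2 probe sets gave -0.10, -0.02 and -0.36.

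Signalling genes of the juxtaglomerular apparatus had 11 of 20 higher and 9 lower (median 0.03). The gap junction protein connexin 43 (Gja1) read 130.8, 193.8 and 244.5 in Dahl S and 127.1, 113.0 and 84.5 in congenic samples. All congenic samples were below all Dahl S samples, narrowly so for sample 1 of each strain, and the log2 difference was -0.78 (SE 0.28, limma adjusted p = 0.9997), the 1 gene of the 7 pathway lists with an unadjusted p under 0.05 (0.0217). The other Gja1 probe sets were below the filter and gave -0.09 and 0.38. Rbpj, Nr1h2 and Prkaca of this list were also lower in all congenic samples, with unadjusted limma p from 0.136 to 0.262. No tested gene of the list was higher in all. Of all tested probe sets 7.08% showed no overlap between the strains, counting both directions.

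The aldosterone arm of the system had 8 of 8 tested genes higher (median 0.17), each by an amount that did not pass. Over all 14 tested probe sets of these genes 11 were higher and 3 lower, and with single samples left out 6 to 8 of the 8 genes were higher. Sgk1, the kinase through which aldosterone raises sodium channel activity, read 297.1, 278.3 and 238.8 in Dahl S and 439.2, 241.7 and 573.3 in congenic samples. Congenic samples 1 and 3 were above all Dahl S samples and congenic sample 2 was inside their range (log2 difference 0.54, SE 0.30, limma adjusted p = 0.9997). Nedd4, a ubiquitin ligase, differed by 0.27 (SE 0.20), and its other tested probe sets gave -0.006, 0.22 and 0.07. The mineralocorticoid receptor Nr3c2 differed by 0.14 (SE 0.34) and Hsd11b2, the enzyme that shields it from glucocorticoids, by 0.02 (SE 0.17). Aldosterone synthase, Cyp11b2, read 1.7 to 8.6 and was not tested (log2 difference 0.66). Nr3c1 (1.81) and Fkbp5 (-1.33) of the aldosterone list also missed the filter, so its 3 untested genes went both ways. Transcription factors known to act on the Agt promoter had 4 of 12 higher and 8 lower (median -0.25), with Jun at -0.66 (SE 0.31) and Cebpb at -0.68 (SE 0.35), beside the Agt difference of -0.04. The other tested Jun probe sets gave 0.05, -0.02 and -1.50. Among these factors Cebpb and Nfkb1 were lower in all congenic samples, and no tested factor was higher in all. By comparison, 7.08% of all tested probe sets showed no overlap, counting both directions. Over all 29 tested probe sets of the factors 11 were higher and 18 lower.

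**Figure D4:**
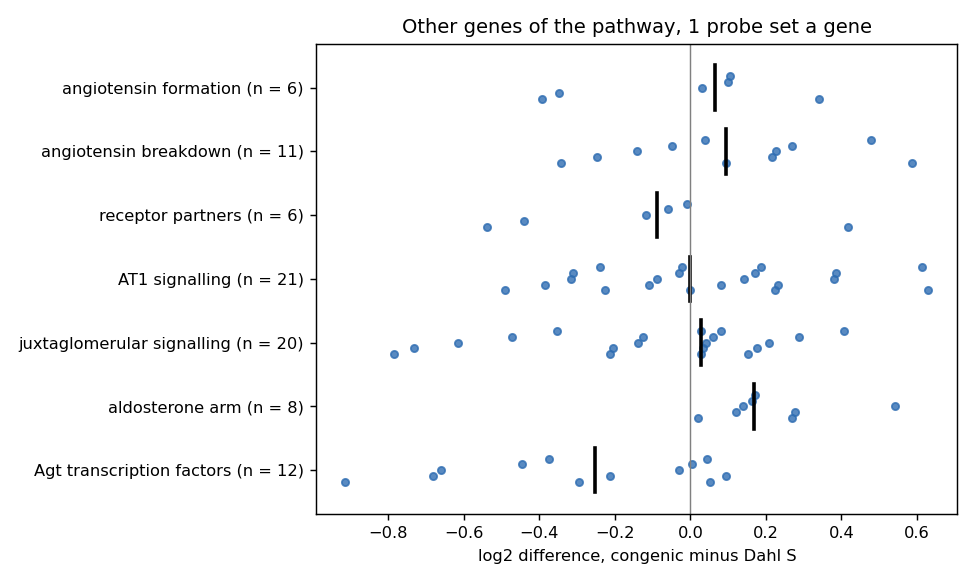
Log2 difference, congenic minus Dahl S, of each tested gene of the 7 pathway lists (points, 1 probe set per gene) with the list's median (black bar) and the number of tested genes. The medians lie between -0.25 for the Agt transcription factors and 0.17 for the aldosterone arm, and no gene passed the adjusted threshold.

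Markers of other cells that could carry these transcripts were measured on the same arrays. The counts and medians cover the tested genes of each list. The summed signals cover every gene of the list on the arrays, tested or not. Smooth muscle and mesangial genes had 4 of 10 higher (median -0.01, summed signal 2200 to 2930 in Dahl S and 1950 to 2650 in congenic samples) and juxtaglomerular genes 1 of 4 (median -0.07, 434 to 507 and 382 to 463). Leukocyte genes had 3 of 14 higher (median -0.35, 5450 to 6950 and 5060 to 5230), mast cell genes 1 of 3 (median -0.19, 296 to 447 and 247 to 400) and blood cell genes 1 of 6 (median -0.44, 12600 to 52200 and 10100 to 19100). The blood cell values rested on Dahl S sample 3, where the globin gene Hba-a1 read 36676.3 against 7613.3 and 9870.9 in Dahl S samples 1 and 2 and 5917.3 to 11704.4 in congenic samples. Without that sample 6 of 6 blood cell genes were higher in the congenic strain (median 0.14). Adrenal genes had 3 of 4 higher (median 0.14, 332 to 445 and 390 to 540), fat genes 2 of 4 (median -0.02, 1080 to 1460 and 1120 to 1470) and liver genes 3 of 5 (median 0.001, 304 to 477 and 293 to 502). Besides Slc4a4 and Egfl7, 3 marker genes had an unadjusted limma p under 0.05 (2.35% of all 8158 genes did). All 3 were lower in the congenic strain: the smooth muscle actin Acta2 (log2 difference -0.67, SE 0.27), the leukocyte gene Coro1a (-0.81, SE 0.33) and the fibrinogen gene Fga of the liver list (-0.93, SE 0.28). The congenic and Dahl S signals did not overlap for Coro1a and Fga and overlapped for Acta2. In the lists of this paragraph Cd68, Cd74, Tagln and Rbpj were also lower without overlap, and no tested gene was higher without overlap. Of all tested probe sets 7.08% showed no overlap, counting both directions. With single samples left out, the median kept its sign for leukocyte genes (2 to 4 of 14 higher), mast cell genes and proximal tubule genes, and did not for the other marker lists. Of these lists' genes 0 passed the adjusted threshold in limma, and their part in the renin-angiotensin values was not tested.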

How the data were processed

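Kidney RNA of 3 Dahl S and 3 congenic samples had been hybridised to 3 array types, for 18 arrays. The authors deposited 1 linear intensity value for each probe set. Judged from these values, arrays had been scaled to a trimmed mean of 150.1 to 150.2 (2% trimmed at each end). The sources used here do not name the summarising software. Groups and sample numbers came from the titles.

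Values below the 10th percentile of an array type were raised to it, log2 was taken, 59 controls per type were left out (26202 probe sets remained), and 15721 with a mean at or above the 40th percentile of their type were tested with limma 3.58.1 in R 4.3.3 (eBayes with an intensity trend), with Benjamini-Hochberg adjustment over all of them. A gene outside the 5 was represented by its probe set with the highest mean. Of 18178 probe sets with 1 symbol, 18122 (99.7%) matched GRCr8 by gene ID. 391 had several symbols and 7633 none.

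The genes and lists were chosen with earlier results of these data known. Besides all probe sets of the 5 genes, key pathway genes were to be named where measured, and from each pathway list the genes with an unadjusted p under 0.05 (if none, the 2 lowest), and the 3 closest profiles per gene. Any other gene, marker genes among them, was picked with its values in view. Simulated data with known changes were used to test the fit. Alternatives covered floor, filter, scaling, variance model, sample number as a block, adjustment, threshold, probe set averaging and samples left out. Figures used matplotlib 3.10.9 in Python 3.11.15.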

Additional observations from a re-analysis of the deposited data

How the results depend on the processing

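Under all 18 alternatives limma called 0 probe sets of the whole table and 0 of the renin-angiotensin set. At an unadjusted p under 0.05 the whole table had 313 (median scaling) to 819 (sample number as a replicate block) probe sets, 797 without a filter, against 391 in the reported fit, and the renin-angiotensin set had 0, except for 1 (Agtr1b S61896_f_at) without Dahl S sample 1 and without both samples numbered 1 (log2 difference 1.82). The labels do not say that sample numbers pair the strains, and the deviations of same-numbered samples correlated at 0.45, 0.08 and 0.18, so the block was not used. With it Ace had SE 0.40 (limma adjusted p = 0.9254). Ace and the tested Agtr1b probe sets M90065cds_f_at and S61896_f_at kept their direction in each alternative that tested them. With samples left out, differences spanned -0.22 to 0.16 for Agt, 0.39 to 0.86 for Ace, -0.05 to 0.13, -0.10 to 0.57 and -0.11 to 0.26 for Agtr1a M86912exon_g_at, M86912exon_at and X62295cds_s_at, and 0.22 to 0.76 and 0.46 to 1.88 for the tested Agtr1b probe sets M90065cds_f_at and S61896_f_at. The untested AT1 probe sets spanned -1.01 to 1.21 (M74054_s_at), -0.61 to 1.58 (X64052cds_f_at) and 0.22 to 1.74 (S37461_f_at, and -0.031 without both samples numbered 1). Signs turned for Agt on leaving out Dahl S 1 (0.07), Dahl S 3 (0.03) or congenic 2 (0.16), for Agtr1a without both samples numbered 1 (-0.14 for M86912exon_g_at, -0.019 for M86912exon_at), for Atp6ap2 under quantile normalization (-0.03) and for Hsd11b2 without both samples numbered 1 (-0.016). The cause was not tested. With single samples left out Atp6ap2 ranged from -0.20 to 0.44, Hsd11b2 from -0.093 to 0.12 and Nr3c2 from -0.016 to 0.38. The filter at the 60th percentile left 5 renin-angiotensin probe sets, without Ace and S61896_f_at. Signal near background limits Agtr2, Mas1 and Cyp11b2.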

Other observations

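The glucocorticoid receptor gene Nr3c1, which binds the Agt promoter and was a member of the aldosterone list, was chosen for mention after its values were seen. Its brightest probe set missed the filter, and it read 15.2, 9.5 and 8.8 in Dahl S and 54.4, 26.5 and 38.0 in congenic samples, without overlap (log2 difference 1.81). In limma without the filter it had SE 0.45 and adjusted p = 1 over 26202 probe sets, with 0.00874 unadjusted. All 3 Dahl S signals were below 21.2, so the size is uncertain. The other 4 Nr3c1 probe sets also missed the filter and gave 0.20 to 1.09, with unadjusted limma p from 0.289 to 0.427 without the filter. The 1.09 rested on congenic sample 1, which read 65.4 against 0.8 to 5.4 in the other samples. Pde3b, a phosphodiesterase of the juxtaglomerular signalling list, was the other untested list gene without overlap (14.3, 2.8 and 3.1 against 18.6, 16.9 and 15.5), with every signal below 21.2. Neprilysin had an untested probe set, rc_AA894298_s_at, in which the samples numbered 1 stood apart as in the AT1 receptor probe sets: 113.0 and 87.1 in sample 1 of Dahl S and congenic, and 5.3 to 8.7 in the other 4 samples.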
